A study of Mus musculus with 2 samples.

Results

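The 8 genes described here encode receptors and enzymes through which macrophages sense and process extracellular nucleotides and NAD. They are the ATP-gated ion channels P2rx4 and P2rx7, the G protein-coupled receptors P2ry6, P2ry12, P2ry13 and P2ry14, the ectonucleotidase Entpd1 (CD39) and the ADP-ribosyltransferase Art2b. They were taken by name from the 27998 genes of the count matrices, and all 8 were present in both matrices and above the minimum level set for a ratio, a mean of 10 CPM over the 2 libraries. A UMI is a molecular identifier that counts 1 captured RNA molecule, and a level in CPM is a gene's UMIs per 1000000 UMIs of the library, lane or group of cells.

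Cells under stress release ATP, ADP and UDP-sugars, which act on P2X channels and P2Y receptors of neighbouring macrophages. CD39 on the cell surface shortens these signals by degrading ATP and ADP, whereas ADP-ribosyltransferases of the ART2 family use extracellular NAD to modify surface proteins, P2X7 of mouse T cells being the best known target. In the gut wall, macrophages are fed by blood monocytes that depend on the chemokine receptor Ccr2, and they also include long-lived cells that carry the phosphatidylserine receptor Timd4.

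The study compared macrophages of the mouse small intestine between wild-type animals (C57BL/6J males from Janvier) and CCR2-/- animals (JAX strain #:004999, bred in-house). For each genotype, 3 to 4 intestines were pooled, and live CD45+ CD11b+ CD64+ MHCII+ cells lacking Ly6C, Ly6G, SiglecF, B220, TCRb and CD3 were sorted and loaded for droplet sequencing with a 3′ kit. There was 1 pooled sample per genotype, called a library here. The wild-type library holds 2 lanes, which are told apart here by the suffix of the cell barcode. No difference between genotypes has a replicate check, and genotype cannot be told apart from the source of the animals or the library. The intervals given below are 95% exact intervals (Poisson for levels, Clopper-Pearson for shares) and cover counting error only.

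After removal of cells with fewer than 200 genes or more than 10% mitochondrial UMIs, 3016 wild-type cells (2109 on lane 1 and 907 on lane 2, median 6129 UMIs) and 2612 CCR2-/- cells (median 2439 UMIs) were left. At least 4 of 8 macrophage markers without a second cell type were found in 95.4% of the wild-type and 82.8% of the CCR2-/- cells. Ccr2 itself measured 331 CPM in the wild-type and 6.88 CPM in the CCR2-/- library, and Timd4 measured 34.2 and 162 CPM. Several other features moved with the library. Malat1, a nuclear RNA that is often read as a sign of cell and RNA quality, measured 39131 CPM on wild-type lane 1, 27630 CPM on lane 2 and 83027 CPM in the CCR2-/- library. Summed erythroid, fibroblast and endothelial markers measured 761, 26.1 and 52.2 CPM in wild type and 7429, 232 and 190 CPM in CCR2-/-, with 0 of their 4, 5 and 5 genes at 0 in either library, and after gating on macrophage markers 13.2, 11.2 and 53.0 CPM in wild type and 443, 32.6 and 139 CPM in CCR2-/-. The wild-type lanes were not alike in these markers. The erythroid sum was 1078 CPM on lane 1 and 3.44 CPM on lane 2, and the fibroblast sum 31.98 and 11.95 CPM. The endothelial sum was 52.57 and 51.42 CPM. In macrophage-gated cells the erythroid sum was 17.39 CPM on lane 1 and 3.09 CPM on lane 2. The part of these features in the differences below was not tested, except where values within Malat1 classes or macrophage-gated cells are given. The wild-type lanes shared 5 cell barcodes with each other, and wild type shared 6 with CCR2-/-. The lanes thus held almost entirely different cell barcodes and are not repeat reads of the same cells.

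Between the libraries, 6 of the 8 genes were higher in CCR2-/- macrophages (P2rx4, P2ry14, P2ry12, Entpd1, P2rx7 and P2ry13) and 2 were lower (P2ry6 and Art2b). Art2b was the 1 gene past a 2-fold difference, in the lower direction, against 3.12% of the 7401 genes above the minimum level that were at least 2-fold lower and 9.04% that were at least 2-fold higher. The median log2 ratio of the 8 genes (CCR2-/- to wild type, after adding 1 CPM) was 0.49, and that of all genes 0.18 with an SD of 0.69. The wild-type lanes carry the same sample, although their erythroid and fibroblast marker sums differed. In these genes the lanes differed by log2 -0.26 to 0.17, and none of the 8 was past 2-fold between them. Of all genes, 0.0405% were at least 2-fold higher and 0.838% lower on lane 2. In macrophage-gated cells the directions of the 8 log2 ratios were unchanged and Art2b, at -1.37, was again the 1 gene past 2-fold, beside 8.60% of genes higher and 3.40% lower. The plot of levels by library and lane shows all values.

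**Figure D1:**
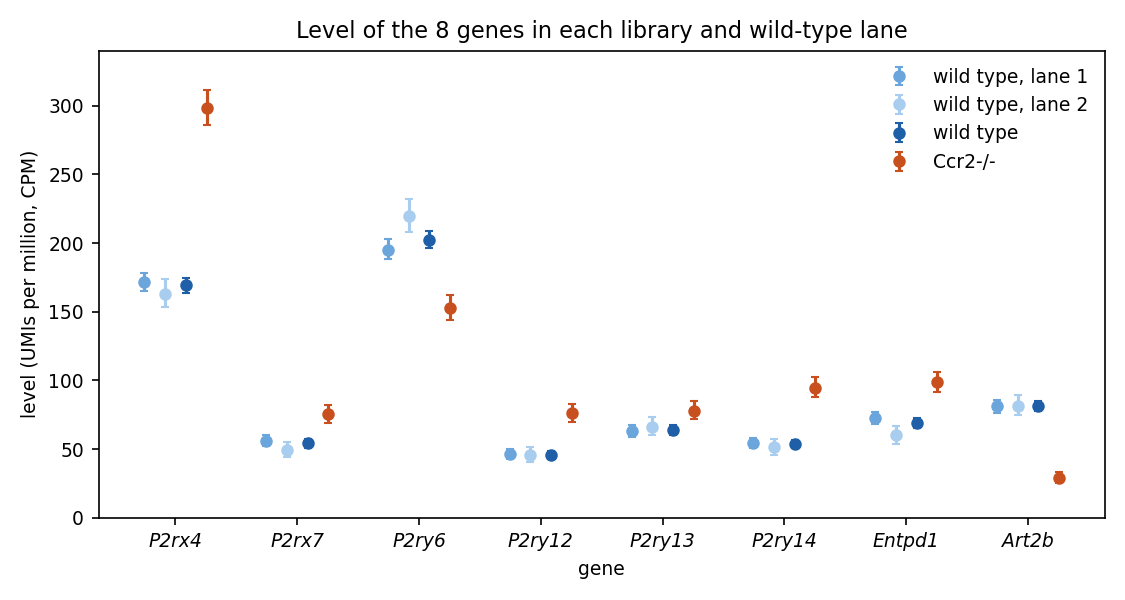
Level of each gene (CPM, y axis) for both wild-type lanes, the wild-type library as a whole and the Ccr2-/- library; points are levels from summed UMIs and bars are 95% exact Poisson intervals. The Ccr2-/- point lies above the wild-type point for 6 genes and below it for P2ry6 and Art2b.

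P2rx4, a calcium-permeable ATP-gated channel found largely on lysosomes and at the cell surface of macrophages, lies at chr5:122707544-122729738 (GRCm38, plus strand). It measured 172 CPM (165 to 179) on wild-type lane 1, 163 CPM (153 to 174) on lane 2 and 299 CPM (286 to 312) in CCR2-/- cells, a 1.77-fold higher level (log2 ratio 0.82). The lane intervals overlapped and that of the CCR2-/- library lay above both. P2rx4 was higher in cells with more Malat1. The cells of both libraries were divided into 3 classes of about equal size, with up to 31 (low), 32 to 62 (middle) and at least 63 Malat1 UMIs (high) per cell thinned at random to 1000 UMIs, which hold 1547, 1085 and 383 wild-type and 283, 720 and 1413 CCR2-/- cells. From low to high, P2rx4 measured 143, 180 and 258 CPM in wild type and 176, 215 and 358 CPM in CCR2-/-. Inside these classes the log2 ratio of CCR2-/- to wild type was 0.29, 0.26 and 0.47, below the 0.82 over all cells. The gene was higher in CCR2-/- in each class, but in the low class the intervals of 145 to 210 and 136 to 151 CPM overlapped.

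The bases before the RefSeq start of P2rx4, the higher of the channels, and of Art2b, the gene past 2-fold, are printed here for reference (RefSeq, GRCm38.p6). The P2rx4 stretch is chr5:122707294-122707543 on the plus strand and ends at the base before the start. The Art2b stretch is chr7:101581180-101581411 on the minus strand, from 250 to 19 bases before a RefSeq start that lies 4439 bases inside the longer GENCODE gene model, so it is intronic in that model. Capitals mark a match to the AP-1 motif.
P2rx4 promoter: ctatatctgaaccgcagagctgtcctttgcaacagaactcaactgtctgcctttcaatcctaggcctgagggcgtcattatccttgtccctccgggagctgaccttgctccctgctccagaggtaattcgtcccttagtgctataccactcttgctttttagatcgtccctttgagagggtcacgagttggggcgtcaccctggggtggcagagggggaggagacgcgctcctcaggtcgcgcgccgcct
Art2b promoter: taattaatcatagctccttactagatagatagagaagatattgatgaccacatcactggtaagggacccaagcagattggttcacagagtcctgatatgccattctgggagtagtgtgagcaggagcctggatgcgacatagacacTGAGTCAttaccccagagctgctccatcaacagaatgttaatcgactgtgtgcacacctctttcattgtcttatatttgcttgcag
On both strands, 5 motifs were searched in the 250 bases before each start: AP-1 (TGANTCA), PU.1 (GAGGAAGT), C/EBP (TTGCNNAA), a MAF half-site (TGCTGAC) and the IRF element, which is given by name. In the P2rx4 stretch none of these letters was found, and in that of Art2b the AP-1 letters began 104 bases before the start. AP-1 letters were also found in 1 of 2 windows of P2rx7 and in 2 of 4 windows of P2ry14, and C/EBP letters in the window of P2ry12 and in 1 of 4 of P2ry14. Over 32851 such windows of the genome, 6.75% held the AP-1 letters, 2.44% PU.1, 9.56% C/EBP, 3.81% the MAF half-site and 2.98% the IRF element. RefSeq windows were matched for 7 of the 8 genes, P2ry6 being the exception.

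P2rx7, the channel that opens a large pore at high ATP and acts upstream of the NLRP3 inflammasome, lies 16111 bases before P2rx4 on the same strand (chr5:122643911-122691432). It measured 56.3 CPM (52.5 to 60.3) on lane 1, 49.5 CPM (44.03 to 55.4) on lane 2 and 75.4 CPM (69.2 to 82.0) in CCR2-/- cells, 1.39-fold higher (log2 ratio 0.47). Although the channels are neighbours, P2rx7 showed little of the relation to Malat1 seen for P2rx4: across the classes it measured 50.1, 58.3 and 59.9 CPM in wild type and 66.0, 75.7 and 76.7 CPM in CCR2-/-. Its log2 ratio inside the classes was 0.39, 0.37 and 0.35. The CCR2-/- and wild-type intervals overlapped in the low class (48.0 to 88.6 and 45.9 to 54.5 CPM). They also overlapped in the high class (68.6 to 85.4 and 49.9 to 71.2 CPM). In the middle class they lay just apart, at 64.5 to 88.4 and 53.2 to 63.9 CPM. P2rx4 and P2rx7 were detected together in 26 of 3015 thinned wild-type cells, where the product of their shares gives 26.7, and in 32 of 2416 CCR2-/- cells, where it gives 37.8.

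Among the P2Y receptors, P2ry6, the UDP receptor linked to phagocytosis (chr7:100937630-100974649, minus strand), was the 1 receptor that was lower in CCR2-/-. It measured 195 CPM (188 to 203) on lane 1, 220 CPM (208 to 232) on lane 2 and 153 CPM (144 to 162) in CCR2-/- cells, 1.33-fold lower (log2 ratio -0.41). The lanes did not overlap, and both lay above CCR2-/-. Inside the Malat1 classes the log2 ratio was -0.90, -0.64 and -0.46, but in cells of 2000 to 4000 UMIs of both libraries it was 0.03.

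P2ry12, P2ry13 and P2ry14 form a cluster on chromosome 3 inside the larger gene Med12l, which runs on the opposite strand. P2ry12, an ADP receptor best known from microglia and platelets (chr3:59216272-59262871), measured 46.1 CPM (42.7 to 49.7) on lane 1, 45.7 CPM (40.5 to 51.4) on lane 2 and 76.1 CPM (69.9 to 82.7) in CCR2-/-, 1.66-fold higher (log2 ratio 0.71). It differed from the other receptors in its relation to Malat1. Across the Malat1 classes it measured 45.5, 46.4 and 46.7 CPM in wild type, while in CCR2-/- it measured 99.0, 91.7 and 62.3 CPM. The log2 ratio was 1.10, 0.97 and 0.41, and in the low class P2ry12 was past 2-fold, where 11.1% of genes were at least 2-fold higher. In the middle and high class it was not, beside 10.9% and 5.85% of genes.

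P2ry13, also an ADP receptor, lies 5389 bases from P2ry12 (chr3:59207892-59210882). It measured 63.0 CPM (59.0 to 67.2) on lane 1, 66.5 CPM (60.2 to 73.3) on lane 2 and 78.0 CPM (71.7 to 84.7) in CCR2-/-, 1.22-fold higher (log2 ratio 0.28), the smallest difference of the 8. The intervals of lane 2 and CCR2-/- overlapped. The log2 ratio was 0.23, 0.15 and -0.13 in the Malat1 classes, with the opposite sign in the high class, and 0.06 in cells with no Ccr2 or Plac8 UMI among all their UMIs (1378 wild-type and 2368 CCR2-/- cells).

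P2ry14, the receptor of UDP-glucose and related sugars (chr3:59113855-59153618), measured 54.4 CPM (50.7 to 58.3) on lane 1, 51.6 CPM (46.0 to 57.6) on lane 2 and 94.8 CPM (87.9 to 102) in CCR2-/-, 1.77-fold higher (log2 ratio 0.81). Like P2rx4 it was higher with more Malat1. Across the classes P2ry14 measured 41.3, 59.2 and 93.8 CPM in wild type and 27.0, 53.6 and 123 CPM in CCR2-/-. Inside the classes the log2 ratio was -0.59, -0.14 and 0.39. P2ry14 was thus lower in CCR2-/- in 2 of 3 classes, with overlapping intervals in both, and higher in the high class, where the intervals of 113 to 134 and 81.2 to 108 CPM did not overlap.

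Whether the counting used the strand is not given in the sources used here, so reads of Med12l and of the receptor cluster cannot be told apart from the tables alone. Med12l measured 3.58 CPM in wild type and 4.82 CPM in CCR2-/-, and its exons share 9 bases with those of P2ry12 and 0 with those of P2ry13 and P2ry14.

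Entpd1, the enzyme that removes phosphates from ATP and ADP (chr19:40612366-40741602, plus strand), measured 72.4 CPM (68.1 to 76.9) on lane 1, 60.1 CPM (54.1 to 66.6) on lane 2 and 98.5 CPM (91.5 to 106) in CCR2-/- cells, 1.43-fold higher (log2 ratio 0.51). The CCR2-/- interval lay above both lanes, which themselves did not overlap. The log2 ratio was 0.38, -0.03 and 0.11 in the Malat1 classes and 0.10 in cells with no Ccr2 or Plac8 UMI among all their UMIs. In wild type the gene measured 55.0, 77.8 and 104 CPM across the classes, again higher where Malat1 was higher.

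Art2b, which codes for the ADP-ribosyltransferase ART2.2 (chr7:101576970-101585600, minus strand), showed the largest difference of the 8 genes. It measured 81.1 CPM (76.6 to 85.9) on lane 1 and 81.7 CPM (74.7 to 89.2) on lane 2, and 29.0 CPM (25.3 to 33.2) in CCR2-/- cells. The lanes were nearly equal, and CCR2-/- was 2.80-fold lower (log2 ratio -1.45). Art2b was also past 2-fold in each of the other settings tried, with log2 ratios from -2.22 to -1.23. Within Malat1 classes it measured 64.4, 97.8 and 104 CPM in wild type and 15.0, 20.2 and 36.0 CPM in CCR2-/-, log2 ratios of -2.03, -2.22 and -1.50. Beside these, 4.90%, 2.82% and 2.45% of genes were at least 2-fold lower. A neighbouring gene of the same family, Art2a-ps, annotated as a polymorphic pseudogene 16104 bases away, has no row of that symbol in the files. The longest transcripts of both align over 1214 bases with 88.1% identity, and 1594 bases at the 3′ end of Art2b lie beyond the alignment, so how reads shared by both were counted is uncertain.

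**Figure D2:**
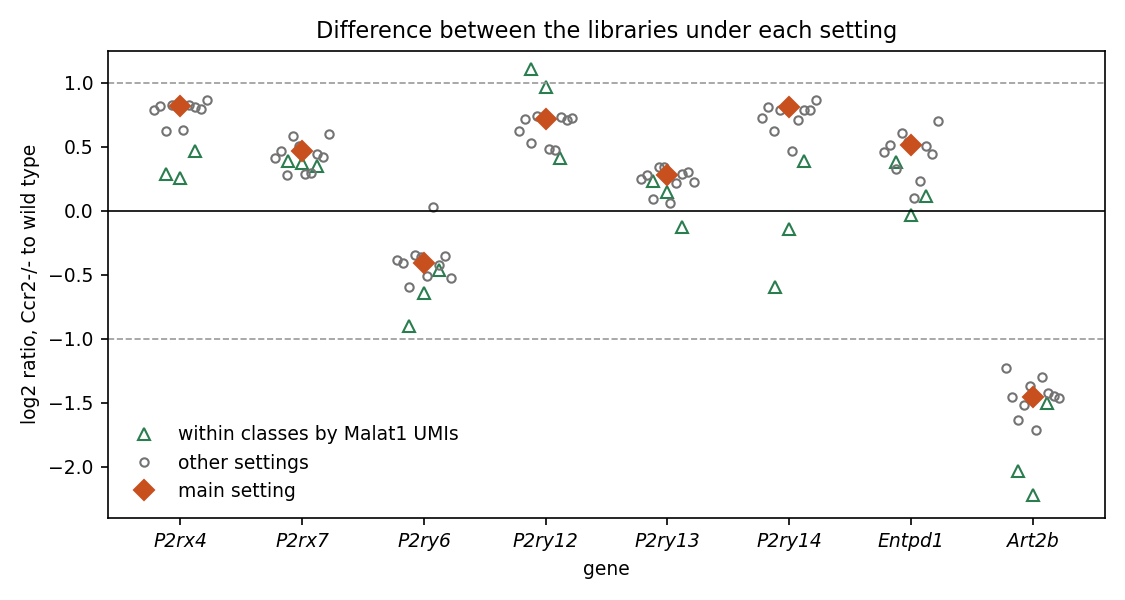
Log2 ratio of the Ccr2-/- to the wild-type level (y axis) for each gene over all kept cells (diamond), within 3 classes of cells by Malat1 UMIs (triangles, low class on the left) and under 10 other settings (circles); dashed lines mark 2-fold. Art2b stays below -1 in all settings, P2ry14 lies on both sides of 0 between Malat1 classes, and P2rx4 lies at 0.26 to 0.47 within them.

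The share of cells with a UMI of each gene gave the same directions except for P2ry13, once depth was made equal. In cells thinned to 1000 UMIs (3015 wild-type and 2416 CCR2-/- cells; 1 and 196 shallower cells were left out), 5 of the 8 genes were detected in a larger share of CCR2-/- cells. P2rx4 was detected in 15.4% (14.2 to 16.8) of wild-type and 23.1% (21.4 to 24.8) of CCR2-/- cells, and Art2b in 8.42% (7.46 to 9.47) and 2.81% (2.19 to 3.55). P2ry12 was detected in 5.04% and 8.15%, P2ry14 in 5.21% and 7.91%, and Entpd1 in 6.67% and 8.98%, with intervals that did not overlap. P2ry6 was detected in 17.2% of wild-type and 13.2% of CCR2-/- cells. The shares of P2rx7, 5.74% and 6.79%, and of P2ry13, 7.16% and 7.08%, had overlapping intervals. How many of all genes were detected in a larger share of CCR2-/- cells, or had intervals apart, is not given here. Neither the count of 5 nor the intervals apart are therefore read as particular to these genes.

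Without thinning, all 8 genes were detected in a smaller share of the shallower CCR2-/- cells, for example P2rx4 in 58.6% and 45.7% and Art2b in 34.6% and 6.78%. As a measure of free RNA, the few cells with at least 3 markers of T, B or plasma cells were used, 33 in wild type (median 8143 UMIs) and 34 in CCR2-/- (median 2490 UMIs). These cells also held a median of 4 and 1.5 of the 8 macrophage markers, and P2rx7 and Art2b are known from T cells, so the comparison is rough. Their thinned shares were 3.03% and 2.94% for P2ry6, 0% (up to 9.09% allowed) and 2.94% for P2ry12, 9.09% and 17.6% for P2rx4, 6.06% and 5.88% for P2rx7, and 9.09% and 5.88% for P2ry13. For P2ry14 they were 3.03% and 0% (up to 8.82% allowed), for Entpd1 3.03% and 5.88%, and for Art2b 6.06% and 0% (up to 8.82% allowed). The wild-type shares of P2rx7 and P2ry13 were thus not above this background and are not read as expression per cell. With so few cells the background intervals were wide, such as 0.743 to 20.2% for wild-type Art2b and 6.76 to 34.5% for P2rx4 of CCR2-/-. Apart from P2ry6 in wild type, they held the share of all cells for each gene. Those shares were therefore not told apart from background either. In 35 thinned CCR2-/- cells with at least 3 fibroblast or endothelial markers (median 3829.5 UMIs), Art2b was found in 2, a share of 5.71% (0.700 to 19.2) and not below that of all CCR2-/- cells, which is read as background too. A thinned cell held a median of 1 of the 8 genes in both libraries, and 47.5% of wild-type and 43.2% of CCR2-/- cells held none.

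Ccr2 marks monocytes and the macrophages that have lately arisen from them. Wild-type cells with a Ccr2 UMI held less of each of the 8 genes. After thinning, 664 wild-type cells had a Ccr2 UMI and 2351 had none, and the log2 ratio of the former to the latter was below 0 for 8 of 8 genes in the whole library and in each lane, with a median of -0.50 beside -0.03 for all genes. None was past 2-fold over both lanes, where 0.655% of genes were at least 2-fold higher and 1.42% lower in Ccr2-positive cells, nor on lane 1, where the shares were 0.664% and 1.55%. Art2b measured 48.3 CPM (42.4 to 54.9) in Ccr2-positive and 91.5 CPM (86.9 to 96.4) in Ccr2-negative cells, a log2 ratio of -0.91. On lane 2 alone its ratio was -1.04, which put 1 gene past 2-fold there, against 1.03% of genes that were higher and 1.75% that were lower.

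P2ry13 measured 42.8 and 70.6 CPM in Ccr2-positive and Ccr2-negative wild-type cells (log2 ratio -0.71), P2ry14 35.9 and 59.1 CPM (-0.70), and Entpd1 47.9 and 75.3 CPM (-0.64). The remaining receptors differed less, with log2 ratios of -0.37 for P2ry12, -0.26 for P2rx7, -0.22 for P2rx4 and -0.21 for P2ry6. For P2rx7 the intervals of both sides overlapped, at 46.9 CPM (41.0 to 53.4) and 56.5 CPM (52.9 to 60.4). On lane 1 alone they overlapped for P2rx7 too, and on lane 2 alone for P2rx4, P2ry6, P2ry12 and Entpd1. In CCR2-/- only 14 thinned cells had a Ccr2 UMI, fewer than the 50 required, so the split was not made there.

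P2ry14 and Art2b were also compared by the number of Ccr2 UMIs. In wild-type cells with 0, 1 and at least 2 Ccr2 UMIs (2351, 428 and 236 cells), P2ry14 measured 59.1, 40.9 and 26.5 CPM and Art2b 91.5, 52.1 and 41.2 CPM. The order held for P2ry14 on both lanes, with 59.7, 43.0 and 29.8 CPM on lane 1 and 57.8, 35.1 and 17.5 CPM on lane 2. For Art2b it held on lane 1, with 91.4, 56.2 and 37.8 CPM, but not on lane 2, with 92.0, 40.9 and 50.4 CPM, where the intervals of the last pair overlapped. P2rx7 showed no such order, at 56.5, 44.6 and 51.2 CPM, and P2rx4 and Entpd1 showed none on lane 2, at 170, 124 and 166 CPM and at 64.0, 44.4 and 48.2 CPM. Malat1 also moved with Ccr2, at a mean of 39.9, 27.9 and 26.9 UMIs per thinned cell. Within the low and the middle Malat1 class the log2 ratio of Ccr2-positive to Ccr2-negative cells was -0.91 and -0.67 for Art2b, -0.57 and -0.54 for P2ry14, -0.63 and -0.61 for P2ry13, and -0.32 and -0.87 for Entpd1. For P2rx4 it was -0.13 and -0.12, and for P2rx7 -0.41 and 0.08.

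**Figure D3:**
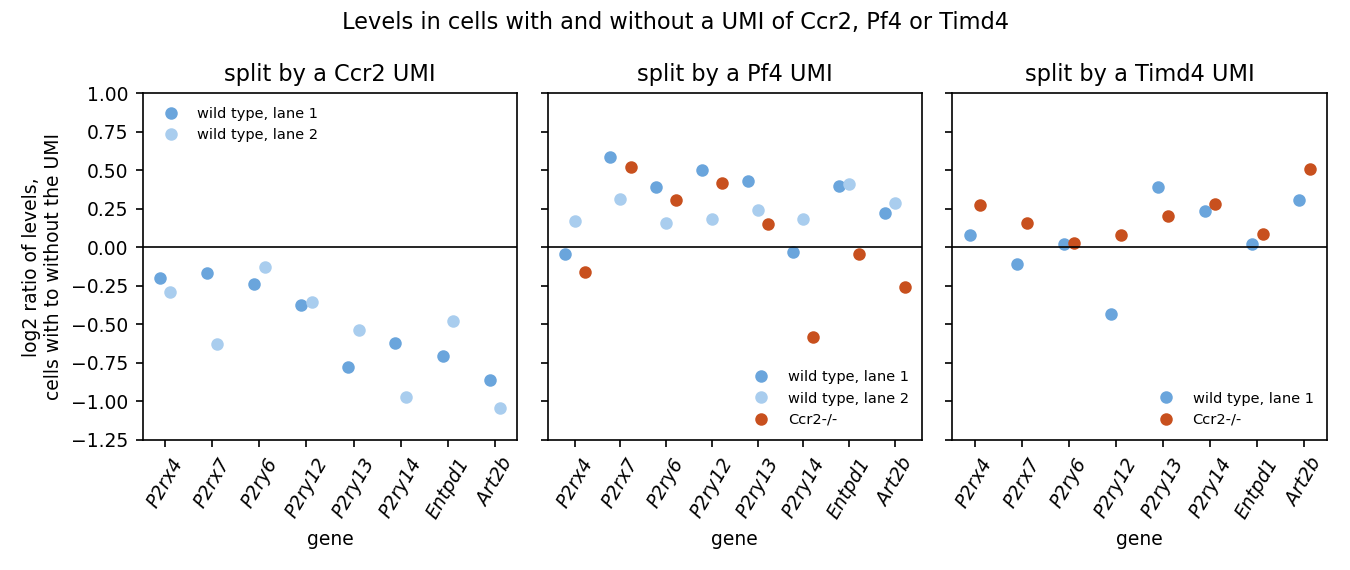
Log2 ratio of the level in cells with to that in cells without a UMI of Ccr2 (left), Pf4 (middle) or Timd4 (right) in the cell thinned to 1000 UMIs, for each gene; colours are the wild-type lanes and the Ccr2-/- library, and splits with under 50 cells on a side are not drawn. All points of the Ccr2 split lie below 0, and P2ry14, Art2b, P2rx4 and Entpd1 of the Ccr2-/- library lie below 0 in the Pf4 split.

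The cells were also grouped by the monocyte-linked gene Plac8 together with Ccr2, after thinning. Wild-type cells with both Ccr2 and Plac8 UMIs (137 cells) had 26.5 CPM of Art2b (17.7 to 38.0), 21.9 CPM of P2ry14, 35.6 CPM of Entpd1 and 110.5 CPM of P2rx4. Cells with neither (2172 cells) had 93.0 CPM of Art2b (88.1 to 98.1), 60.8 CPM of P2ry14, 77.5 CPM of Entpd1 and 177 CPM of P2rx4. Mean Malat1 was 22.4 UMIs per thinned cell in the cells with both and 40.7 in those with neither. Art2b of the CCR2-/- cells with neither UMI (2312 cells) was 30.7 CPM (26.7 to 35.2), close to that of the monocyte-like wild-type cells, while their P2ry14, Entpd1 and P2rx4 of 94.1, 98.9 and 305 CPM lay above all 4 such groups of wild type. Mean Malat1 of these CCR2-/- cells was 86.5 UMIs per thinned cell, also above all 4 wild-type groups, and its part in these levels was not tested. Comparing only cells with neither UMI after thinning, the log2 ratio of CCR2-/- to wild type was -1.57 for Art2b, -0.44 for P2ry6, 0.35 for Entpd1 and 0.13 to 0.78 for the other genes. With neither UMI required before thinning, which keeps 1378 of the wild-type cells, the ratio was -1.71 for Art2b, -0.51 for P2ry6, 0.10 for Entpd1, 0.06 for P2ry13 and 0.29 to 0.63 for the other 4 genes. Art2b was thus lower in CCR2-/- also among cells without either transcript. These are not matched cells, since Ccr2 is the gene disrupted in CCR2-/-. There only 14 thinned cells had a Ccr2 UMI, so lacking one does not mark the same cells as in wild type.

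**Figure D4:**
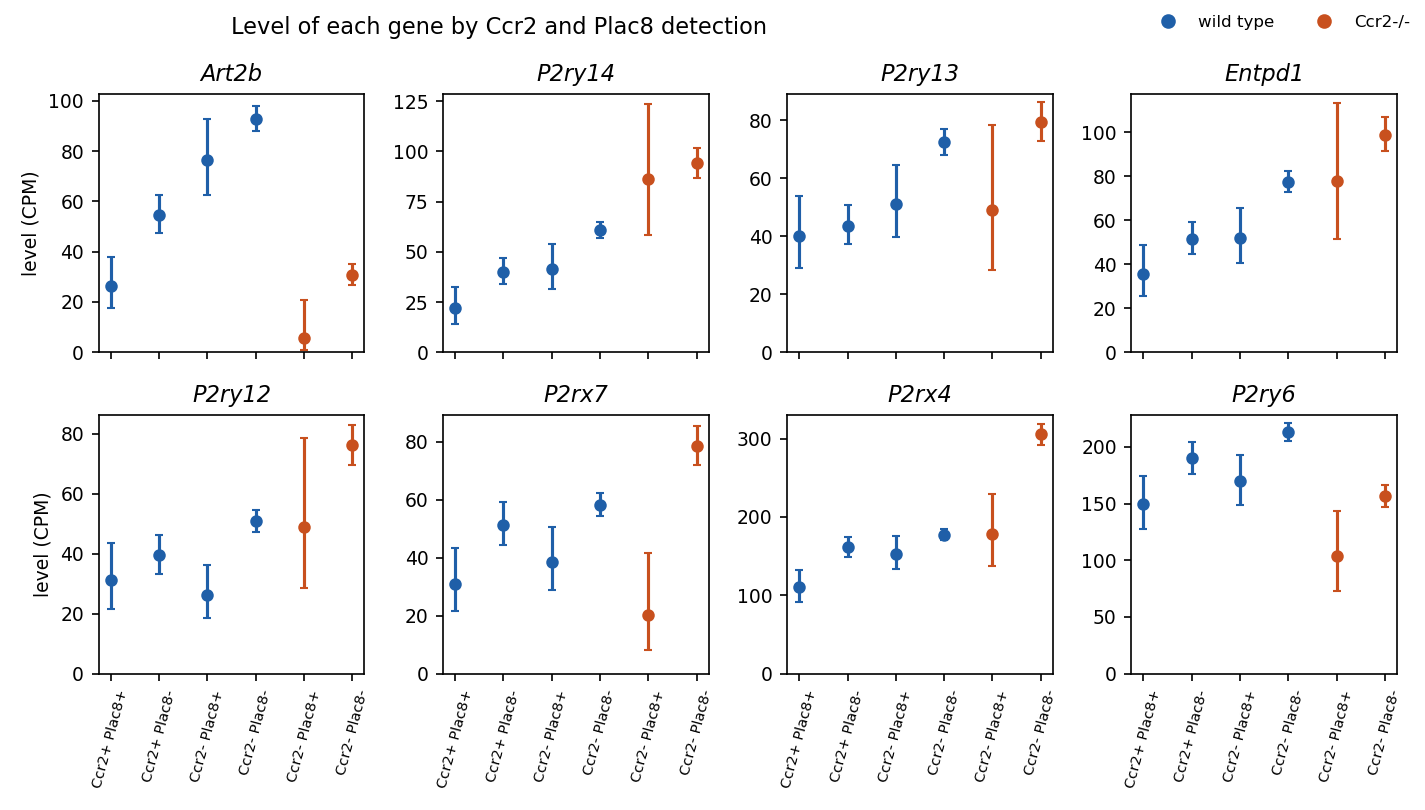
Level of each gene (CPM, y axis of each panel) in cells grouped by a UMI of Ccr2 and of Plac8 after thinning (x axis); points are levels, bars are 95% exact Poisson intervals, and groups under 50 cells are left out. In wild type the Ccr2+ Plac8+ cells lie below the Ccr2- Plac8- cells for all 8 genes, and Art2b of the Ccr2-/- library lies below that of wild type in both groups they share.

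Pf4 codes for a platelet-factor chemokine that marks part of the tissue-resident macrophages. A Pf4 UMI was found in 1616 of 3015 thinned wild-type and 1110 of 2416 CCR2-/- cells. None of the 8 genes was past 2-fold between cells with and without it, against 0.368% of genes higher and 0.538% lower in wild type, and 1.02% and 1.40% in CCR2-/-. On the wild-type lanes taken alone there was again none, beside 0.379% higher and 0.547% lower on lane 1, and 0.717% and 0.790% on lane 2. The ratio was above 0 for 8 of 8 genes in wild type and 4 of 8 in CCR2-/-, but in wild type those of P2rx4 and P2ry14 were 0.02 and 0.03, and on lane 1, where 6 of 8 were above 0, they were -0.04 and -0.03. The median log2 ratio of the 8 genes was 0.34 in wild type, where that of all genes was 0.05, and 0.06 in CCR2-/-, where that of all genes was 0.02.

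P2rx7 and P2ry6 were higher in Pf4-positive cells of both libraries. P2rx7 measured 63.9 CPM (59.2 to 69.0) in Pf4-positive and 44.5 CPM (40.5 to 48.8) in Pf4-negative wild-type cells, and 90.4 CPM (80.4 to 101) and 62.5 CPM (54.8 to 71.0) in CCR2-/- cells, log2 ratios of 0.51 and 0.52. P2ry6 measured 225 and 180 CPM in wild type and 172 and 138 CPM in CCR2-/-, log2 ratios of 0.32 and 0.31. On wild-type lane 2 alone the ratio was 0.31 for P2rx7 and 0.16 for P2ry6, with overlapping intervals. P2ry12 showed 0.41 and 0.42, but 0.18 on wild-type lane 2 with overlapping intervals, and in the low, middle and high Malat1 class 0.67, 0.21 and -0.13 in wild type and 0.48, 0.28 and 0.34 in CCR2-/-. Of these classes its intervals lay apart only in the low class of wild type. In the low, middle and high Malat1 class, P2rx7 had a ratio above 0 in both libraries, at 0.60, 0.36 and 0.62 in wild type and 0.83, 0.58 and 0.50 in CCR2-/-. Its intervals lay apart in the low class of wild type and the high class of CCR2-/-, and overlapped in the other classes. P2ry6 reached 1.61 in the 283 CCR2-/- cells of the low class, with 146 CPM (108 to 194) and 47.3 CPM (27.1 to 76.9), where 16.3% of genes were at least 2-fold higher and 8.79% lower, and 0.22 to 0.45 in the other classes of CCR2-/-. In those other classes the intervals of P2ry6 overlapped.

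P2ry14 went the other way in CCR2-/-. It measured 73.6 CPM (64.6 to 83.5) in Pf4-positive and 110.6 CPM (100.2 to 122) in Pf4-negative CCR2-/- cells, a log2 ratio of -0.58, and 54.2 and 52.9 CPM in wild type, a ratio of 0.03. Across cells with 0, 1, 2 to 4 and at least 5 Pf4 UMIs (1306, 562, 461 and 87 cells), P2ry14 of CCR2-/- measured 110.6, 88.8, 68.2 and 11.3 CPM, the last from 3 UMIs (2.33 to 33.1 CPM). In wild type the same steps gave 52.9, 57.0, 53.5 and 43.2 CPM. Over the same steps of CCR2-/- cells mean Malat1 was 96.9, 80.2, 65.0 and 53.1 UMIs per thinned cell. In the low, middle and high Malat1 class the CCR2-/- ratio of P2ry14 was 0.67, -0.61 and -0.40. The intervals overlapped in the low class (16.7 to 59.9 and 8.33 to 42.7 CPM) and the middle class (33.1 to 57.1 and 51.5 to 87.2 CPM). They lay apart in the high class, at 88.5 to 120 and 123 to 152 CPM.

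P2rx7, P2ry6 and P2ry12 were ordered by the steps in the wild-type library as a whole. P2rx7 measured 44.5, 58.6, 67.2 and 77.1 CPM over the Pf4 steps of wild type and 62.5, 73.8, 100.5 and 136 CPM over those of CCR2-/-. P2ry6 measured 180, 219, 229 and 235 CPM in wild type and 138, 156, 183 and 208 CPM in CCR2-/-. P2ry12 measured 39.3, 42.0, 59.4 and 76.0 CPM in wild type, with no such order in CCR2-/- (64.3, 90.1, 82.9 and 83.0 CPM). On wild-type lane 2 the order did not hold for P2rx7 (44.1, 54.2, 52.8 and 73.0 CPM), P2ry6 (208, 228, 237 and 233 CPM) or P2ry12 (42.8, 38.6, 59.6 and 50.2 CPM), with 43 cells at the last step. Art2b of CCR2-/- stayed between 26.0 and 31.8 CPM at all steps, below the 74.4 to 94.7 CPM of wild type. Inside Pf4-positive cells the log2 ratio of CCR2-/- to wild type was -1.70 for Art2b (3.07% of genes at least 2-fold lower) and 0.43 for P2ry14. Inside Pf4-negative cells it was -1.20 for Art2b (4.08% lower) and 1.05 for P2ry14 (11.0% at least 2-fold higher), and P2ry14 was thus past 2-fold there. Among Pf4-positive cells 7.76% of genes were at least 2-fold higher.

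**Figure D5:**
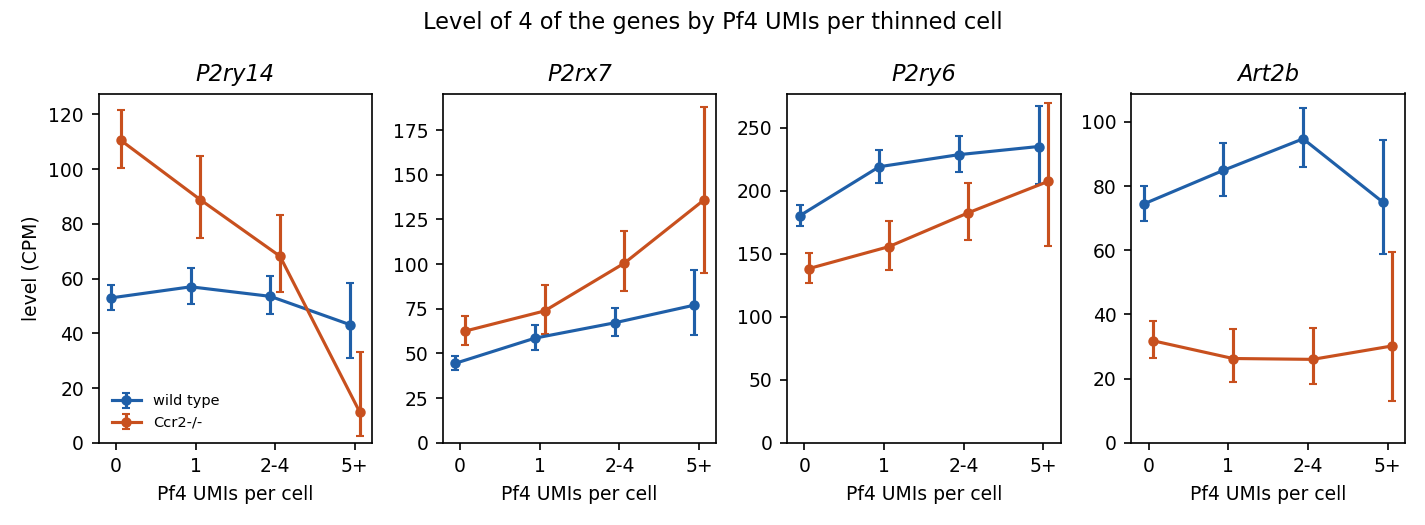
Level of P2ry14, P2rx7, P2ry6 and Art2b (CPM, y axis) by the number of Pf4 UMIs per cell thinned to 1000 UMIs (x axis) in the wild-type and Ccr2-/- libraries; points are levels and bars are 95% exact Poisson intervals. P2rx7 and P2ry6 are higher at each further Pf4 step in both libraries, P2ry14 is lower at each further step in Ccr2-/-, and the Art2b points of Ccr2-/- lie below those of wild type, with intervals that overlap at 5 or more Pf4 UMIs.

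Timd4, a marker of long-lived resident macrophages, split the cells unevenly: 126 of 3015 thinned wild-type cells and 384 of 2416 CCR2-/- cells had a UMI. None of the 8 genes was past 2-fold in either library, beside 1.51% of genes higher and 1.30% lower in wild type, and 0.280% and 1.51% in CCR2-/-. In wild type, P2ry13 measured 89.4 CPM (69.8 to 113) in Timd4-positive and 63.0 CPM (59.6 to 66.6) in Timd4-negative cells, a log2 ratio of 0.50, and was the 1 gene whose intervals did not overlap. On lane 1 alone its ratio was 0.39 and its intervals of 60.7 to 108 and 58.1 to 66.5 CPM overlapped. Lane 2 had 33 Timd4-positive cells and was not split. On lane 1 none was past 2-fold either, beside 1.70% and 1.72% of genes. In CCR2-/- the ratio was above 0 for 8 of 8 genes, with a median of 0.18 beside 0.01 for all genes. Those of P2ry6, P2ry12 and Entpd1 were only 0.03, 0.08 and 0.09. Under 5 other settings the sign turned in 2 for P2ry6 and for Entpd1, and in 1 for P2ry12 and for P2ry13. Only for P2rx4, at 349 CPM (315 to 386) and 289 CPM (275 to 303), did the CCR2-/- intervals lie apart. The share of all genes with intervals apart in these splits is not given here, so neither P2ry13 nor P2rx4 is read as standing out. Art2b measured 39.5 CPM (28.6 to 53.2) in Timd4-positive and 27.5 CPM (23.4 to 32.0) in Timd4-negative CCR2-/- cells, and 97.0 and 80.7 CPM in wild type. Inside Timd4-positive cells Art2b thus differed between the libraries by a log2 ratio of -1.27, where 10.2% of genes were at least 2-fold higher and 5.37% lower.

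Across single cells no pair of the 8 genes showed a relation strong enough to read. Of the 28 pairs, Pearson's r of log UMIs in thinned cells ran from -0.03 to 0.04 in 3015 wild-type cells and from -0.03 to 0.05 in 2416 CCR2-/- cells, which share depth and library. These are too weak to read in sparse counts. Of 2178 genes detected in at least 5% of cells of both libraries, Malat1 was the most like P2rx4, with r of 0.11 in wild type and 0.14 in CCR2-/-, and this was the 1 relation of at least 0.1 in both. Next came Rgs1 (0.07, the lower of the 2 values) and Sat1 (0.07). The nearest for the others were all under 0.1 and are named as weak only: Pf4, Sepp1 and Tcf4 for P2rx7, Apoe, Cd74 and H2-Aa for P2ry6, Cx3cr1, Igfbp4 and Unc93b1 for P2ry12, Hspa5, Snx10 and Psap for P2ry13, Rgs1, Malat1 and Isg15 for P2ry14, Gdap10, Adamdec1 and Plekho2 for Entpd1, and Amica1, Apoe and Cd74 for Art2b.

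The rest of the purine machinery was measured for comparison from lists of named genes. Of 9 other P2 receptors in the files, 0 reached the mean of 10 CPM, P2rx1 coming nearest with 4.79 CPM in wild type and 13.5 CPM in CCR2-/-. Of 4 adenosine receptors, 1 did: Adora3 measured 11.0 CPM in wild type and 11.7 CPM in CCR2-/-. Among 17 other enzymes that hydrolyse or convert nucleotides, 5 reached it and 1 was past 2-fold, Enpp4, with 28.7 and 59.5 CPM (log2 ratio 1.02). Entpd6, a relative of Entpd1, measured 15.3 and 31.1 CPM (0.98) and Enpp1 8.12 and 16.0 CPM (0.89), while the nucleoside phosphorylase Pnp measured 118 and 72.3 CPM (-0.70). The median of the 5 was 0.89.

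Of 9 other genes of NAD use and ADP-ribosylation, 3 reached the minimum and 0 were past 2-fold. Cd38, an NAD-degrading ectoenzyme that competes with ART2 for its substrate, measured 106 and 187 CPM (log2 ratio 0.81). The ADP-ribosyl hydrolases Adprh and Adprhl2 measured 57.0 and 49.1 CPM (-0.21) and 19.5 and 12.5 CPM (-0.60). Of 6 genes of nucleotide release and nucleoside transport, 4 reached it and 1 was past 2-fold: Lrrc8a, a subunit of volume-regulated anion channels, measured 9.53 and 27.0 CPM (1.41). The ATP-releasing channel Panx1 measured 23.1 and 33.6 CPM (0.52) and the nucleoside transporter Slc29a3 45.8 and 54.2 CPM (0.24). The median of the 4 was 0.38.

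All 7 genes of the inflammasome downstream of P2X7 reached the minimum, with a median of -0.64, with 3 higher and 4 lower in CCR2-/-. The sensor Nlrp3 was past 2-fold higher in CCR2-/-, with 42.7 and 126 CPM (log2 ratio 1.54), and the adaptor Pycard past 2-fold lower, with 216 and 104 CPM (-1.04). The cytokine Il1b measured 1178 and 2183 CPM (0.89) and the kinase Nek7, which binds Nlrp3, 50.8 and 74.3 CPM (0.54). The protease Casp1 measured 53.6 and 29.3 CPM (-0.85) and the pore former Gsdmd 59.2 and 32.2 CPM (-0.86). Of 7 genes that share P2ry12's link to microglia, 4 reached the minimum and 0 were past 2-fold. Cx3cr1 measured 621 and 1025 CPM (0.72), Gpr34 57.5 and 68.0 CPM (0.24) and Olfml3 72.6 and 71.4 CPM (-0.02).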

How the data were processed

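The deposited files are UMI counts, which the authors made with Cell Ranger 3.0.1 on mm10, per the submitters' processing notes. The gene annotation and cell calling are not given in the sources used here. Droplets came from a 3′ kit per the labels, so levels are not compared between genes. Cells under 200 genes or over 10% mt- UMIs were dropped and the UMIs of the others summed per library or lane as CPM. Log2 ratios use a pseudocount of 1 CPM, genes with a mean of at least 10 CPM, and a threshold of 2-fold; with 1 library per genotype there is no test. For shares and splits, cells were thinned at random to 1000 UMIs; levels in a split use all UMIs of its cells. The 8 genes and the lists were chosen with earlier results of these data known. The marker thresholds (at least 4 of 8 macrophage markers, under 3 markers of another type, under 5% haemoglobin UMIs) and the Malat1 classes were set after the data were seen. Named genes were the 8, the splitting genes, the 3 genes per pathway list and direction with the largest ratios, and the 3 genes most like each of the 8. Med12l, P2rx1 and Malat1 stand outside this rule and were chosen after their values were seen, and 1 listed gene is not reported here. Doublets were not removed: Scrublet (scanpy 1.11.5) called 19 of 5628 cells (0.338%), too few to be used, and the 98 highest scores were removed as an alternative. Coordinates are from GENCODE on GRCm38. The code (Python 3.11.15, numpy 2.4.6, scipy 1.17.1) was tested on simulated counts.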

Additional observations from a re-analysis of the deposited data

Results flagged for a closer look

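For Entpd1 and Art2b the log2 ratios of the split by Pf4 had opposite signs in the libraries, with both wild-type lanes on the same side. Entpd1 showed a log2 ratio of Pf4-positive to Pf4-negative cells of 0.41 in wild type and -0.04 in CCR2-/-. Art2b showed 0.24 in wild type and -0.25 in CCR2-/-. In CCR2-/- the intervals of both sides overlapped for Entpd1 (85.8 to 107 and 89.3 to 110 CPM) and Art2b (21.2 to 32.6 and 26.4 to 38.0 CPM), so the CCR2-/- ratios are within counting error. The difference between the libraries was not tested, since each genotype had 1 library. Within the low, middle and high Malat1 class, Art2b showed 0.36, 0.22 and -0.25 in wild type and 0.59, 0.65 and -0.41 in CCR2-/-. The CCR2-/- intervals of both sides overlapped in each class. In the low class they were 6.70 to 39.8 and 3.23 to 30.3 CPM, with 6 UMIs in the Pf4-positive cells. In wild type they overlapped in the middle and high class, so the signs there and in CCR2-/- are within counting error. Entpd1 showed 0.66, 0.21 and 0.22 in wild type and 0.52, -0.05 and 0.03 in CCR2-/-, and its intervals too lay apart only in the low class of wild type.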

How the results depend on the processing

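No paired analysis was possible because there is 1 library per genotype and the labels give no shared replicate numbers. Of 60 counts of genes past a threshold recomputed under other settings, 56 stayed within 1.5 times of the main count and 4 did not. Without thinning, 0 of 8 genes had a larger share of CCR2-/- cells, against 5 with it; the CCR2-/- cells were shallower. The split by Ccr2 on wild-type lane 2 alone had 1 gene past 2-fold, Art2b, against 0 over both lanes. Within the low Malat1 class (a division chosen with the values known), 2 genes were past 2-fold between the libraries (P2ry12 higher and Art2b lower) against 1, and 1 gene (P2ry6) between Pf4-positive and Pf4-negative CCR2-/- cells against 0, in a comparison where 16.3% of all genes were past 2-fold higher and the median of all genes was 0.29; the cause was not tested. Of 408 recomputed log2 ratios of single genes, 324 stayed within the counting interval of the main value, and no gene past 2-fold changed direction. Art2b was past 2-fold between the libraries in 13 of 13 settings. Without cells with a Ccr2 or Plac8 UMI among all their UMIs, the median of the 8 genes was 0.19 in place of 0.49, with 1378 wild-type cells left of median 4954 UMIs. Median-of-ratios scaling moved the median of all genes from 0.18 to 0.00. The Timd4 split of wild-type lane 2 and the Ccr2 splits of CCR2-/- and of the high Malat1 class had under 50 cells on a side and were not made. Levels of low genes in small gates, such as P2ry14 at 3 UMIs, are limited by depth.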
